A study of Bos taurus with 56 samples.

Results

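Accessible chromatin of immature cattle oocytes was set beside that of 2-cell embryos, the stages on either side of the mature MII oocyte. All 4382 peaks of the germinal vesicle (GV) oocyte list and all 2636 peaks of the 2-cell embryo list were taken, together 7018 of the 673059 peaks in the 11 lists of the series, or 1.04%. Peaks of the 2 lists that had 1 bp or more in common were called shared, and all others GV-only or 2-cell-only. The split gave 384 shared and 3998 GV-only peaks on the GV side, and 379 shared and 2257 2-cell-only peaks on the 2-cell side. The 2 numbers of shared peaks differ because 12 GV peaks covered 2 or more 2-cell peaks and 14 2-cell peaks covered 2 or more GV peaks. The choice used the positions in these 2 lists alone, so presence in the 9 other lists was not part of it.

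Chromatin accessibility was measured in Bos taurus by ATAC-seq, in which a transposase cuts and tags DNA that is not closed off by nucleosomes, so that reads pile up as peaks over accessible DNA. GV oocytes and 2-cell embryos were each represented by 6 libraries made from pooled oocytes or embryos, and the authors joined the peaks of a stage into 1 list. The labels give no breed, treatment, age or way of production for either group, and the number of oocytes or embryos in a pool is not given in the sources used here. With 1 list per stage and no read counts, neither the spread between libraries nor sequencing depth could be had, so no test between stages was possible and all differences below are between lists. The 95% intervals are exact Clopper-Pearson intervals, which cover counting error only and treat neighbouring peaks as independent. The peak positions are on build UMD3.1, and no annotation of that build was used here, so that peaks are given by position without genes and the stage labels were not checked against marker genes.

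As background, the GV oocyte is held in meiotic prophase within an intact nucleus, and late in growth its chromatin gathers around the nucleolus and transcription falls silent. At MII the chromosomes are condensed on the spindle and carry no nuclear envelope. After fertilisation a maternal and a paternal genome, the latter repackaged from protamines, are joined in the 2-cell embryo, which in cattle still lies before the embryo's own genome is activated on a large scale, around the 8-cell stage and after. Cattle autosomes are acrocentric, and the numbering of a chromosome generally begins at its centromere end, so that its last positions are taken as distal.

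The 2 lists differed in length and shared a small part of their peaks. GV oocytes had 1.66 times as many peaks as 2-cell embryos, which covered 1.65 times as many bases, 1.89 Mb against 1.15 Mb. Sharing came to 14.4% of the 2-cell list (interval 13.1% to 15.8%) and to 8.76% of the GV list (interval 7.94% to 9.64%). For comparison, 1.4% of the peaks of the 10 lists other than GV overlapped a GV peak and 1.1% of those of the 10 lists other than 2-cell overlapped a 2-cell peak. In bases, 228 kb were common to both lists, 12.1% of the GV and 19.9% of the 2-cell length. The higher share on the 2-cell side follows from its shorter list: with the GV list reduced to its widest peaks, as many as the 2-cell list holds, the shares were 12.1% and 12.0%.

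Where the lists met, they mostly met closely. Shared peaks formed 399 overlapping pairs with a median of 433 bp in common, and the centres of a pair lay a median of 92 bp apart (quartiles 29 to 296 bp). The bases in common were a median of 0.622 of the bases covered by either peak. The 2-cell peak was the wider in 202 pairs and the GV peak in 196, and the median ratio of 2-cell to GV width was 1.01. Neither stage thus had the wider peak more often, although single ratios ran from 0.0684 to 11. In 248 of the pairs, at least 50% of both peaks was shared. At the edge of the rule, 9 pairs had under 50 bp in common, the least being 3, 7 and 14 bp, while 5 GV-only peaks lay under 50 bp from a 2-cell peak, the nearest at 6, 14 and 18 bp.

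Unshared peaks were not in general near misses. The gap from a GV-only peak to the nearest 2-cell peak had a median of 282 kb, and 1.68% of GV-only peaks lay within 1 kb of a 2-cell peak. For 2-cell-only peaks the median gap to a GV peak was 145 kb, and 3.15% lay within 1 kb. A gap under 100 kb was found for 26.4% of GV-only and 42.7% of 2-cell-only peaks, with the GV list the longer of the 2. Joining the peaks of both lists into 6619 regions gave 364 regions in both (5.5%), 3998 of GV alone and 2257 of 2-cell alone.

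The MII list, with 730 peaks, lay between these stages. Of the 364 regions in both GV and 2-cell, 245 (67.3%, interval 62.2% to 72.1%) had no MII peak and 119 (32.7%, interval 27.9% to 37.8%) had one, against 0.277% of the peaks of all other lists. The regions with an MII peak were wider, with a median of 1056 bp against 698 bp. Regions of both kinds were mostly found again at the 4-cell stage, in 118 of 119 with an MII peak and in 204 of 245 (83.3%) without. Seen from MII, 127 of its peaks (17.4%) overlapped both lists, 13 (1.78%) GV alone, 43 (5.89%) 2-cell alone, and 547 (74.9%) neither. MII peaks that met either neighbouring stage therefore met both more often than a single list.

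**Figure D1:**
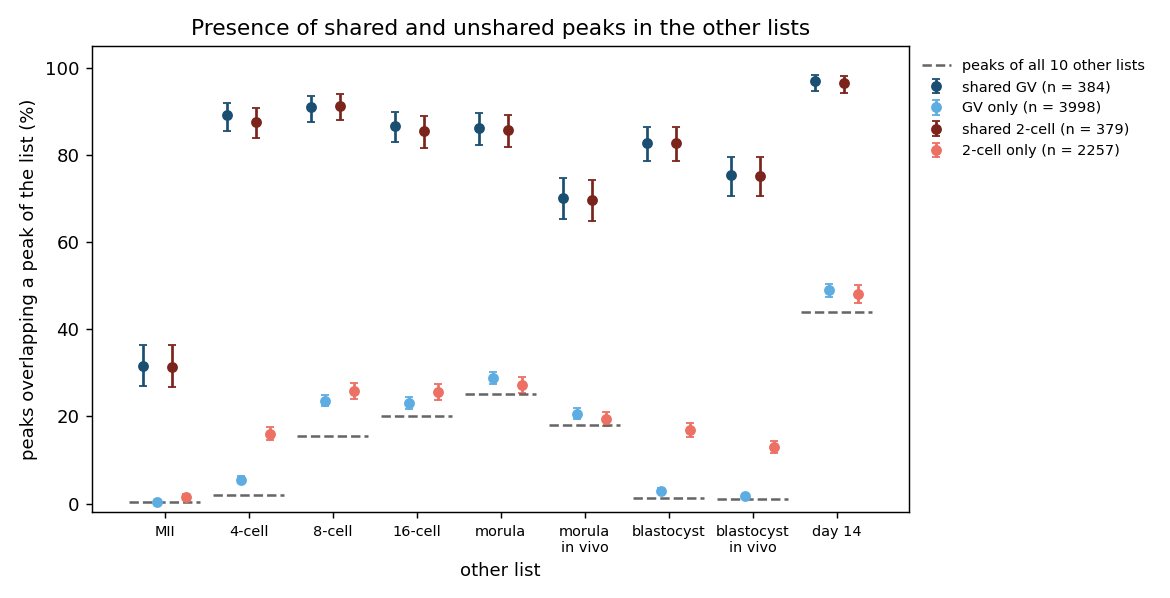
Share of peaks (%, vertical axis) that overlapped a peak of each of the 9 other lists (horizontal axis), for shared and unshared peaks of the GV and 2-cell lists, with 95% exact intervals as bars and the share over the peaks of all 10 lists other than the named one as dashed lines. Shared peaks lie at 69.7% or above in every list but MII, while GV-only and 2-cell-only peaks lie within 3 percentage points of each other in the 8-cell, 16-cell, morula and day 14 lists and stand apart in the 4-cell and both blastocyst lists.

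Peaks shared by GV oocytes and 2-cell embryos recurred through the rest of the series. Of the 379 shared 2-cell peaks, 31.4% overlapped an MII peak. At the 4-cell stage 87.6% were present (2.0% of the peaks of all other lists), at the 8-cell stage 91.3% (15.5%) and at the 16-cell stage 85.5% (20.1%). In morulae 85.8% were present (25.1%), in morulae labelled in vivo 69.7% (18.0%), in blastocysts 82.8% (1.27%), in blastocysts labelled in vivo 75.2% (1.15%), and in day 14 elongating embryos 96.6% (44.0%). The shares seen from the GV side differed from these by less than 2 percentage points in each list. A shared peak was found in a median of 8 of the 9 other lists, with 28.0% of shared 2-cell peaks in all 9 and a further 27.7% in all but MII. GV and 2-cell had 2 regions in common that no other list held, at chromosome 8, 61270362 to 61271084 (723 bp), and chromosome 20, 69864559 to 69865107 (549 bp).

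Most shared peaks belonged to regions that recur in the short lists. Of the shared GV peaks, 327 of 384 (85.2%) overlapped a peak in 2 or more of the MII, 4-cell, blastocyst and in vivo blastocyst lists, against 2.05% of GV-only peaks and 15.4% of 2-cell-only peaks. Without these recurring peaks, 3.0% of the remaining 2-cell peaks were shared with GV and 1.43% of the remaining GV peaks with 2-cell. The 57 shared GV peaks that stayed had a median width of 429 bp, and 66.7% of them (interval 52.9% to 78.6%) overlapped an 8-cell peak and 91.2% (interval 80.7% to 97.1%) a day 14 peak. In the lists between and beyond, 38.6% overlapped a 4-cell peak, 50.9% a 16-cell peak, 56.1% a morula peak, 35.1% an in vivo morula peak, 14.0% a blastocyst peak and 3.51% an in vivo blastocyst peak. The recurring peaks were left out by their presence in the MII, 4-cell and blastocyst lists and not by sharing. The shares of the 57 peaks in the 4-cell and both blastocyst lists are therefore lowered by construction.

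GV-only and 2-cell-only peaks had similar shares in the long lists as deposited, but not under all other settings. In the 8-cell list 23.6% (interval 22.3% to 25%) of GV-only and 25.8% (interval 24.0% to 27.7%) of 2-cell-only peaks were present, both above the 15.5% of peaks of all other lists. In the 16-cell list the shares were 23.1% and 25.6% against 20.1%, in morulae 28.9% and 27.2% against 25.1%, in in vivo morulae 20.6% and 19.4% against 18.0%, and in day 14 embryos 48.9% and 48.2% against 44.0%. In the 16-cell, both morula and day 14 lists, both classes thus lay within 6 percentage points of the share over all other peaks. With an overlap counted only from 50% of each peak on, the similarity was lost, at 6.8% of GV-only and 13.1% of 2-cell-only peaks in the 8-cell list, 7.74% and 13.8% in the 16-cell list, 6.12% and 11.9% in morulae and 12.3% and 17.3% in day 14 embryos. Without peaks of recurring regions the GV-only share was the larger, at 22.7% and 15.6% in the 8-cell list, 22.4% and 16.3% in the 16-cell list, 28.0% and 18.2% in morulae and 48.0% and 39.7% in day 14 embryos. That setting left out 15.4% of 2-cell-only but 2.05% of GV-only peaks, chosen by presence in other lists. Its values therefore cannot say whether the classes differ in the long lists. No peak in any other list was found for 1698 GV-only peaks (42.5%, interval 40.9% to 44.0%) and 992 2-cell-only peaks (44.0%, interval 41.9% to 46.0%), against 59.4% of all peaks of the 11 lists. Day 14 was the only other list for 18.8% and 16.3%, against 9.26% of the peaks of the 10 lists other than day 14.

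The classes parted in the short lists, above all in blastocysts. A blastocyst peak was found for 2.95% (interval 2.45% to 3.52%) of GV-only peaks and 17% (interval 15.4% to 18.6%) of 2-cell-only peaks, against 1.27% of all other peaks. In the in vivo blastocyst list the shares were 1.68% and 13%, against 1.15%, and in the 4-cell list 5.5% and 16.0%, against 2.0%. The 4-cell list is the next stage after the 2-cell embryo, but the share of 2-cell-only peaks in the blastocyst list, which is shorter than the 4-cell list, was about as high. In the MII list the shares were 0.325% (13 peaks) and 1.6% (36 peaks), against 0.277% of all other peaks. The interval of the GV-only share, 0.173% to 0.555%, includes that value. Of all 2-cell peaks, 26.4% overlapped a blastocyst peak and 26.3% a 4-cell peak, while of all GV peaks 9.95% and 12.8% did. Without the 10 windows of 1 Mb richest in GV and 2-cell peaks, 11.6% of 2-cell-only peaks overlapped a blastocyst peak. Recurring regions were chosen by these same 4 short lists, so leaving them out lowers the shares in those lists by construction. The values without them therefore cannot say whether the classes differ. The shares of GV-only and 2-cell-only peaks without them were 4.01% and 3.77% in the 4-cell list and 1.12% and 2.62% in the blastocyst list. In the in vivo blastocyst list they were 0.332% and 0.838%, and in the MII list 0.153% and 0.0524%.

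A pattern of presence in all later lists without MII was found for part of the 2-cell-only peaks. Of these, 109 (4.83%, interval 3.98% to 5.8%) had a peak in each of the 8 later lists and none in MII, whereas 9 GV-only peaks (0.225%) did. Of all peaks of the 10 lists other than MII, 0.337% had this pattern, with a peak's own list counted as present. Presence in the GV list was left open in that share, so it is not limited to peaks that both oocyte lists lack. Chromosome 17 held 35 of the 109 (32.1%), of which 12 lay between 50 and 51 Mb, 11 between 51 and 52 Mb and 6 between 25 and 26 Mb. Chromosome 1 followed with 10, 9 of them between 145 and 146 Mb. The 109 peaks had a median width of 645 bp. A different pattern, which also required absence from the MII, 4-cell and both blastocyst lists, was the more frequent among GV-only peaks. Presence in exactly the 5 lists of 8-cell, 16-cell, morula, in vivo morula and day 14 embryos was found for 414 GV-only peaks (10.4%, interval 9.43% to 11.3%) and 110 2-cell-only peaks (4.87%, interval 4.02% to 5.84%). Of the peaks of GV, 2-cell and these 5 lists, 6.98% had this pattern, with a peak's own list counted as present. Presence in GV and 2-cell was left open in that share, so it rests on a looser rule than the shares of the 2 classes. With other lists allowed as well, presence in these 5 lists was about equal, at 12.8% of GV-only and 13.0% of 2-cell-only peaks. The 414 GV-only peaks of exactly these lists had a median width of 374 bp. They were spread over all chromosomes, with 40 on chromosome 18 and 35 on chromosome 5.

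Shared peaks were wider than unshared ones in both lists. The median width was 578 bp for shared and 362 bp for GV-only peaks, and 585 bp for shared and 315 bp for 2-cell-only peaks. Widths of at least 1000 bp were found in 20.3% of shared GV peaks and 0.525% of GV-only peaks, and in 21.9% of shared 2-cell peaks and 1.91% of 2-cell-only peaks. The narrowest peak was 219 bp in the GV and 230 bp in the 2-cell list, so both lists had nearly the same lower bound. When each list was divided by width into 5 classes of equal number, the widest class of the 2-cell list (478 to 3747 bp) was shared in 44.6% and the narrowest (230 to 258 bp) in 2.65%. In the GV list the widest class (508 to 4005 bp) was shared in 26.0% and each of the other 4 in 3.31% to 5.82%. Sharing in GV oocytes was thus highest in the widest class with little order among the others, while in 2-cell embryos it rose with width, from 5.69% and 6.45% in the next 2 classes to 12.5% in the fourth.

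**Figure D2:**
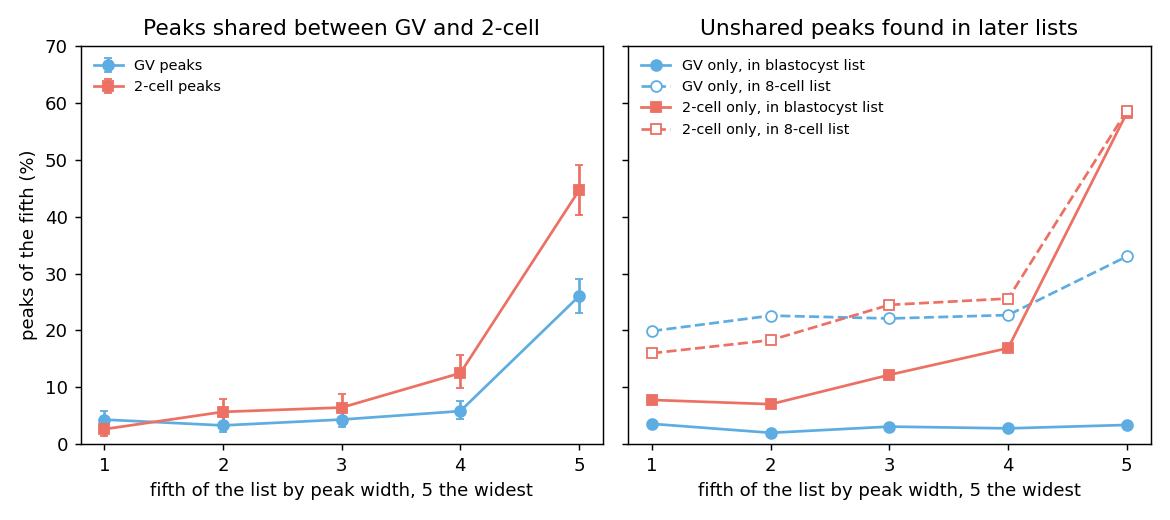
Share of peaks (%, vertical axes) in 5 classes of peak width with equal numbers of peaks (horizontal axes), on the left for peaks shared between GV and 2-cell with 95% exact intervals as bars, on the right for unshared peaks found in the 8-cell (dashed lines) and blastocyst lists (solid lines). In the widest class 58.2% of 2-cell-only peaks were in the blastocyst list, against 3.39% of GV-only peaks.

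Width bore on later presence differently in GV-only and 2-cell-only peaks. In the widest class, 58.2% of 2-cell-only peaks overlapped a blastocyst peak, 57.2% a 4-cell peak and 58.6% an 8-cell peak, against 7.78%, 7.2% and 16.0% in the narrowest. Among GV-only peaks, the blastocyst share stayed between 2.01% and 3.58% in all 5 classes, and the 8-cell share was 33.0% in the widest and 19.9% in the narrowest. The difference between the classes in the blastocyst list was therefore found at each width and was greatest for wide peaks. With unshared peaks given the width distribution of the shared peaks in their own list, 37.5% of GV-only and 53.6% of 2-cell-only peaks were in the 8-cell list, still below the 90.9% and 91.3% of shared peaks. That weighting rests on few wide GV-only peaks, with 3 in the least filled of its 10 width classes.

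The widest regions followed these patterns in part. The widest shared GV peak lay at chromosome X, 89972338 to 89976342, and was 4005 bp wide, with a 2-cell peak of 3747 bp wholly inside it and peaks in all 9 other lists. Similar pairs were found at chromosome 16, 55855021 to 55858497 (3477 bp in GV, 2871 bp in 2-cell), and at chromosome 6, 5904878 to 5908049 (3172 and 2980 bp), also with peaks in all 9 other lists. At chromosome X, 27725464 to 27728665, a GV peak of 3202 bp covered 3 separate 2-cell peaks of 2057, 373 and 255 bp. The second widest shared GV peak, at chromosome 18, 57604364 to 57607874 (3511 bp), met a 2-cell peak of only 240 bp. Unlike most shared peaks, it had further peaks in only the 4-cell, 8-cell and day 14 lists. That pair shows how an overlap of 1 bp or more can join peaks of very unequal width.

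Among regions with a peak in GV, MII and 2-cell, the widest after the X region just named lay at chromosome X, 28504749 to 28508419 (3671 bp), and chromosome 13, 83063674 to 83067253 (3580 bp), both with peaks in every list. The widest GV-only peak lay near a chromosome start, at chromosome 9, 39085 to 41598 (2514 bp). Unlike most GV-only peaks, it had peaks in 7 other lists, the 4-cell and blastocyst lists among them. Behind it came chromosome 20, 56765428 to 56767156 (1729 bp), chromosome 18, 57707256 to 57708808 (1553 bp), chromosome 17, 67775720 to 67777134 (1415 bp), and chromosome 9, 12945172 to 12946578 (1407 bp). Those 4 had peaks in 2 to 6 other lists, among them day 14 in each and neither MII nor a blastocyst list in any. The 5 widest 2-cell-only peaks all lay on chromosome 17, at 35644840 to 35648370 (3531 bp), 50933015 to 50935915 (2901 bp), 50872500 to 50875211 (2712 bp), 51628372 to 51631059 (2688 bp) and 49103222 to 49105822 (2601 bp). Each of these 5 had a peak in all 8 later lists and none in MII.

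By chromosome, GV density exceeded 2-cell density on 15 chromosomes and was below it on the other 15. Density is given as peaks per Mb over the mean of the list. Chromosome 23 had the highest ratio of GV to 2-cell density, 3.22, with 166 GV peaks (1.92 times the list mean) against 31 2-cell peaks (0.596 times). Chromosome 13 followed with a ratio of 2.59 (293 against 68 peaks), then chromosomes 18 with 1.81 (259 against 86), 24 with 1.78 (160 against 54) and X with 1.52 (294 against 116). The lowest ratios were those of chromosomes 22 at 0.405 (33 against 49 peaks), 1 at 0.446 (103 against 139), 17 at 0.579 (102 against 106, or 0.953 with an interval of 0.675 to 1.36 without recurring regions), 6 at 0.584 (130 against 134) and 8 at 0.592 (129 against 131). On chromosomes 22, 1, 17, 6 and 8 the shorter 2-cell list thus held more peaks than the GV list. In the other lists, density on chromosome 13 ran from 0.415 in in vivo blastocysts to 1.39 in day 14 embryos, below the 2.11 of GV oocytes. Chromosome 18, at 2.38 in GV oocytes, was dense elsewhere too, with 1.78 in day 14 embryos, 1.56 in 8-cell embryos and 1.49 in MII oocytes. Its lowest density was 0.273, in blastocysts. On chromosome 23 density in the other lists ran from 0.388 in blastocysts to 1.33 in day 14 embryos.

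**Figure D3:**
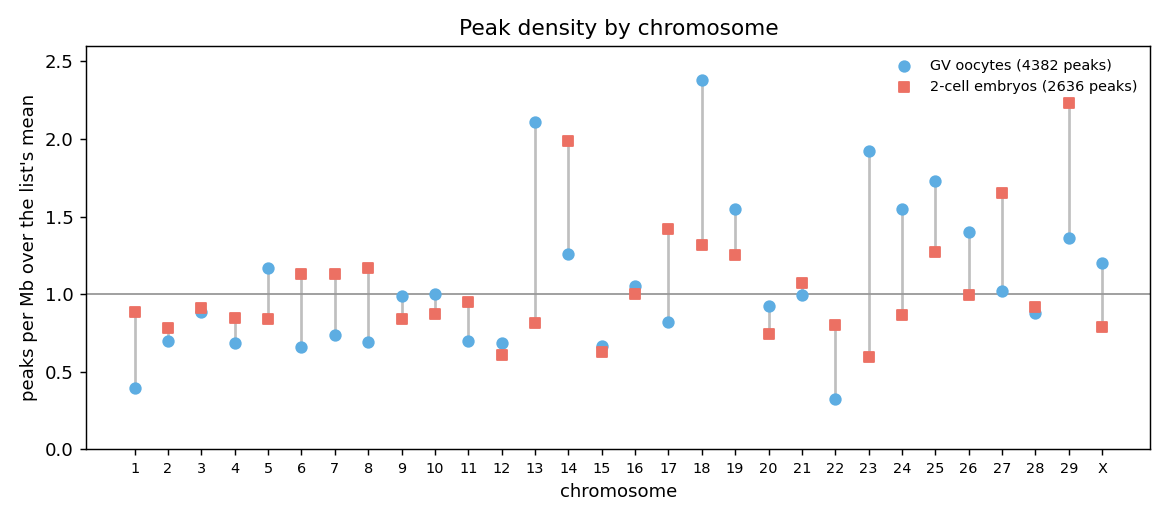
Peaks per Mb over the mean of the list (vertical axis) for each chromosome (horizontal axis) in the GV list (circles) and the 2-cell list (squares), joined by grey lines. The widest gaps above are on chromosomes 13, 18 and 23, where GV density is 2.11, 2.38 and 1.92, and 2-cell density is highest on chromosome 29 at 2.23.

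Sharing varied by chromosome as well. On chromosome 23 no peak was shared, 0 of 31 2-cell peaks, which allows a share of up to 9.68% when 3 counts are taken as the limit, and 0 of 166 GV peaks, which allows 1.81%. On chromosome 17, 2 of 106 2-cell peaks (1.89%) were shared, and on chromosome 12, 1 of 55. Chromosome 14 was at the other end among autosomes, with 65 of 167 2-cell peaks (38.9%) and 67 of 176 GV peaks (38.1%) shared, followed by chromosome 6 with 37 of 134 2-cell peaks (27.6%). On chromosome X, 61 of 116 2-cell peaks (52.6%, interval 43.1% to 61.9%) were shared, while on the autosomes 318 of 2520 (12.6%, interval 11.3% to 14.0%) were. The X chromosome held 6.71% of GV peaks and 4.4% of 2-cell peaks, but 16.1% of shared 2-cell peaks and 2.44% of 2-cell-only peaks. A larger part of the X peaks than of the autosomal peaks of the 2-cell list was thus also in the GV list.

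On chromosome 17, 2-cell-only peaks were frequent in later lists. Of its 104 2-cell-only peaks, 52 overlapped a blastocyst peak, 53 (51.0%, interval 41.0% to 60.9%) an in vivo blastocyst peak, 52 an 8-cell peak and none an MII peak. Over the peaks of all other lists, the shares were 1.27% in blastocysts, 1.15% in in vivo blastocysts and 15.5% in the 8-cell list. Both blastocyst lists were themselves dense on chromosome 17, at 2.01 (blastocyst) and 2.27 (in vivo blastocyst) times their mean density. How often chromosome 17 peaks of the whole series overlapped these lists was not computed. Between 51 and 52 Mb the 2-cell list had 23 peaks, 19 of them with a blastocyst peak, and the GV list 1. Between 50 and 51 Mb the 2-cell list had 15 peaks, all with a blastocyst peak, and the GV list none, and between 25 and 26 Mb 8 and none. No MII peak lay in these 3 windows, which were chosen after their values were seen. Without chromosome 17, 15.4% of 2-cell-only peaks overlapped a blastocyst peak.

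Peaks of both lists were gathered in a few places. Of 2678 windows of 1 Mb, 1525 held a GV peak, 1294 a 2-cell peak and 909 both. The fullest window of either list was the first Mb of chromosome 14, with 70 GV and 83 2-cell peaks, of which 56 and 54 were shared. The MII list had 20 peaks there, the 4-cell list 95 and the blastocyst list 129. Other windows full in both lists were chromosome 6, 6 to 7 Mb, with 26 peaks in each and 20 of them shared, and chromosome 29, 30 to 31 Mb, with 22 GV and 57 2-cell peaks.

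Some full windows were uneven between the stages. On chromosome 18, the window from 57 to 58 Mb held 29 GV and 4 2-cell peaks. That from 51 to 52 Mb held 19 and 8, closer to the ratio of the list lengths. On chromosome 1, the window from 145 to 146 Mb held 6 GV and 41 2-cell peaks, and on chromosome 27 the window from 28 to 29 Mb 9 and 27. These last windows had 120 and 145 blastocyst peaks, whereas the chromosome 18 windows had 3 and 1. The 10 windows fullest in both lists together held 5.04% of GV peaks and 11.1% of 2-cell peaks, and 33.1% of shared GV peaks. Shared peaks were the more clustered: 55.2% of them in GV and 58.6% in 2-cell lay within 10 kb of another peak of their own list, against 15.7% of GV-only and 17.4% of 2-cell-only peaks.

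**Figure D4:**
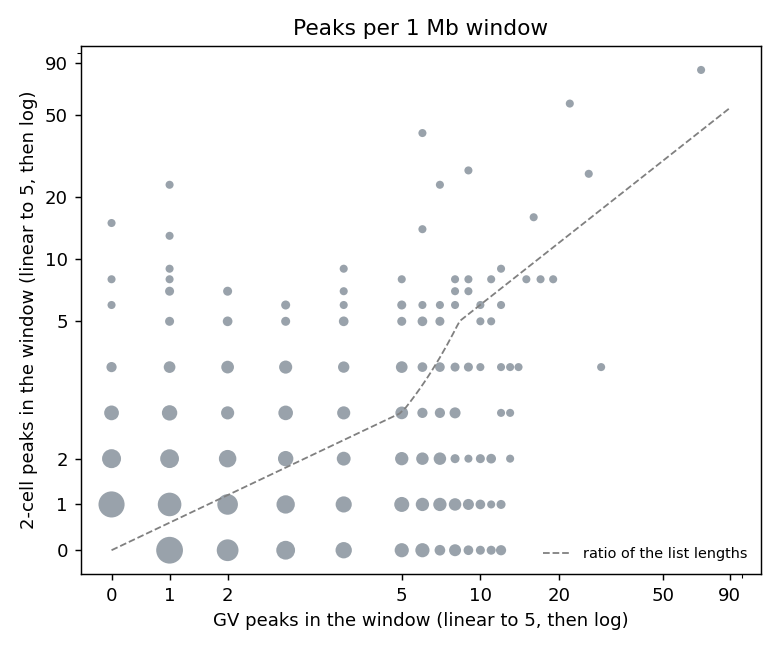
Number of 2-cell peaks (vertical axis) against number of GV peaks (horizontal axis) in windows of 1 Mb with at least 1 peak, both axes linear up to 5 and logarithmic above, with larger circles for more windows and a dashed line at the ratio of the list lengths. The window at the upper right, with 70 GV and 83 2-cell peaks, is the first Mb of chromosome 14, and the windows at the upper left hold many 2-cell and few GV peaks.

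Along the autosomes, GV-only peaks lay towards the distal ends. Of 3761 autosomal GV-only peaks, 637 (16.9%, interval 15.8% to 18.2%) lay within 5 Mb of the last position, a stretch that makes up 5.77% of autosomal length, and 140 (3.72%) within 5 Mb of the start. Of 2202 2-cell-only peaks, 240 (10.9%, interval 9.63% to 12.3%) lay in the last 5 Mb and 178 (8.08%, interval 6.98% to 9.3%) in the first 5 Mb. The distal share of GV-only peaks was above the share of length on 27 of 29 autosomes, and that of 2-cell-only peaks on 25, the exceptions being chromosomes 19 and 27 for both classes and 14 and 29 for 2-cell-only peaks. By chromosome, the GV-only share was highest on chromosomes 28, with 25 of 63 peaks, and 17, with 38 of 100. Over the share of length it was highest on chromosome 9, at 6.0 (46 of 162 peaks), and chromosome 17, at 5.71. The short chromosome 28 stood at 3.67. The distal share of the GV list as a whole, 16.2%, was the highest of the 11 lists, followed by day 14 with 11.1% and the 2-cell and 4-cell lists with 10.6% each.

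Distal unshared peaks were found less often at the cleavage and morula stages than other unshared peaks. Of GV-only peaks in the last 5 Mb, 12.2% (interval 9.8% to 15.0%) overlapped an 8-cell peak, 18.4% a morula peak and 41.9% (interval 38.1% to 45.9%) a day 14 peak. Of GV-only autosomal peaks elsewhere, 25% (interval 23.5% to 26.5%), 30.1% and 50.5% (interval 48.7% to 52.2%) did, while median widths were 359 and 361 bp. Distal 2-cell-only peaks overlapped an 8-cell peak in 15.4% and a blastocyst peak in 7.5%, against 26.5% and 18.0% elsewhere, and their day 14 shares were 48.8% and 47.8%. GV-only peaks of no other list lay in the last 5 Mb in 20.8% of cases, those with the 8-cell to morula and day 14 pattern in 7.44%. Of its own autosomal peaks, the 8-cell list had 5.04% in the last 5 Mb, the 16-cell list 5.39% and the morula list 6.01%. The in vivo morula list had 3.99% there, the blastocyst list 3.66% and the day 14 list 11.1%. How often all peaks of the series overlapped these lists by place was not computed. No test of these differences between places was made.

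**Figure D5:**
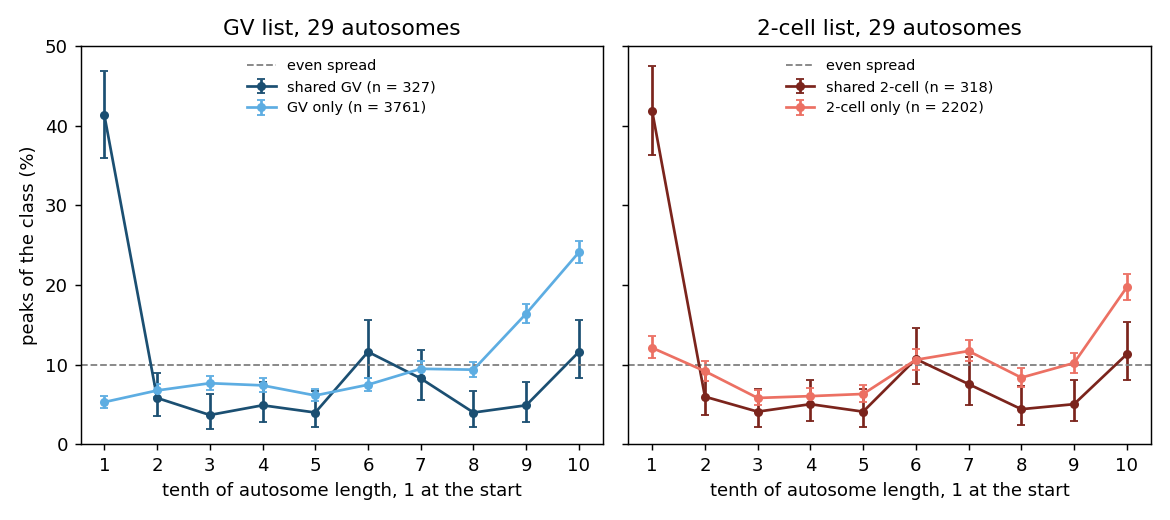
Share of the peaks of a class (%, vertical axes) in each of 10 equal parts of autosome length, 1 being the start as numbered and 10 the distal end (horizontal axes), for the GV list on the left and the 2-cell list on the right, with 95% exact intervals as bars and a dashed line at an even spread. Shared peaks stand at 41.3% and 41.8% in the first, and GV-only and 2-cell-only peaks at 24.1% and 19.7% in the last.

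Within 5 Mb of either end, shared peaks lay more often at the starts, though mainly through chromosome 14 and regions that recur in the short lists. Of 327 autosomal shared GV peaks, 88 (26.9%, interval 22.2% to 32.1%) lay in the first 5 Mb and 26 (7.95%, interval 5.26% to 11.4%) in the last. For shared 2-cell peaks the shares were 27.7% and 8.18%. Chromosome 14 carried much of this: without it, 10.8% of shared GV peaks and 11.9% of shared 2-cell peaks lay in the first 5 Mb, 1.87 and 2.06 times the share of length. Without recurring regions the value for shared GV peaks was 1.51 at the starts (interval 0.419 to 3.6) and 2.26 at the ends (interval 0.856 to 4.55), neither of which excludes an even spread. For shared 2-cell peaks it was 1.47 at the starts (interval 0.41 to 3.53) and 2.58 at the ends (interval 1.07 to 4.9), the latter above an even spread. Without the 10 fullest windows, shared GV peaks stood at 2.67 at the starts and 2.17 at the ends (interval 1.44 to 3.08). Shared 2-cell peaks then stood at 2.87 and 2.2 (interval 1.46 to 3.12). The excess of 2-cell-only peaks at the starts, 1.4 times the share of length, was 1.08 times without chromosome 14. Within the last 1 Mb the shares of shared GV (6.12%), GV-only (3.7%) and 2-cell-only peaks (3.59%) were each above the 1.15% of length.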

How the data were processed

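The deposited lists hold 3 columns per peak, and the authors merged the peaks of the libraries of a stage, per the series description. Bowtie2 2.3, MACS2, bedtools and HOMER with build UMD3.1 are named in the submitters' processing notes, without a role for each. The sources used here do not give the merging rule, the cutoff for peaks or whether read positions were shifted for the transposase, and all of these, with depth, bear on the number and width of peaks. Starts were read as counting from 0 and are printed counting from 1. Chromosome lengths were taken as the last position in any list (2661 Mb in total). A peak's place is that of its midpoint. No peaks within a list overlapped, and a joined region is made of overlapping GV and 2-cell peaks.

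The comparison across peaks of other lists counts all peaks of the 10 lists other than the list named, the day 14 list with its 372509 peaks among them except in its own comparison. Regions named are the 5 widest shared GV, GV-only and 2-cell-only peaks, the 3 widest regions in both lists and in no or in the MII list, the 5 chromosomes at each end of the density ratio and the 5 fullest windows of each list. Chromosomes 9, 12, 14, 28 and 29 and the X stretch were named after their values were seen. Members and rules were chosen with earlier results of these data known. Overlaps were tested on simulated lists, and 20 of 20 overlap counts were equal to those of bedtools 2.31.1. Intervals were computed with scipy 1.17.1, tables with pandas 2.3.3 and numpy 2.4.6 under Python 3.11.15, and figures with matplotlib 3.10.9.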

Additional observations from a re-analysis of the deposited data

How the results depend on the processing

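The peak number, the shares of shared peaks, presence in other lists, chromosome density, places near chromosome ends, widths and the MII share were recomputed, each under those that bear on it of these settings: peaks of at least 329 bp, the median width of all peaks, with peaks closer than 500 bp joined, with 50% of both peaks shared, with peaks widened by 250 bp, with the GV list reduced to its widest peaks, as many as the 2-cell list holds, without the 10 fullest windows, without recurring regions, with starts counted from 1, with weights for width, and within 1 or 10 Mb of chromosome ends. Leaving out chromosome 14 or 17 was chosen after seeing the data. Replicates could not be left out because the lists are merged, and no paired analysis was possible because the result comes from no test. Of the main values recomputed, 54 stayed within their counting interval or, for the number of chromosomes with the higher GV density (13 to 17, against 15), within 1.5 times the value, 56 moved outside and 1 turned direction. Sharing by chromosome, windows, gaps and patterns over lists were not recomputed. The number of GV over 2-cell peaks was 2.19 among wide peaks, 1.78 without full windows and 2.02 without recurring regions. The share of 2-cell peaks with a GV peak was 21.6% among wide peaks, 9.41% with 50% shared, 15.8% widened, 12.1% with the reduced GV list, 11% without full windows, 3.0% without recurring regions and 12.7% without chromosome 14. The share of GV peaks with a 2-cell peak was 9.95% among wide peaks, 5.66% with 50% shared, 12.0% with the reduced GV list, 6.18% without full windows, 1.43% without recurring regions and 7.54% without chromosome 14. GV-only peaks in the 8-cell list were 6.8% with 50% shared, 27.6% widened and 37.5% weighted. In the blastocyst list they were 1.9% among wide peaks, 1.98% with 50% shared, 6.37% weighted and 1.12% without recurring regions, whose choice used that list. 2-cell-only peaks in the 8-cell list were 33.5% among wide peaks, 13.1% with 50% shared, 29.8% widened, 53.6% weighted, 22.4% without full windows and 15.6% without recurring regions. In the blastocyst list they were 24.0% among wide peaks, 12.1% with 50% shared, 50.2% weighted, 11.6% without full windows, 2.62% without recurring regions, whose choice used that list, and 15.4% without chromosome 17. Shared 2-cell peaks in MII were 23% with 50% shared and 0.0% without recurring regions, whose choice used the MII list. In the 8-cell list they were 75% with 50% shared and 66.1% without recurring regions. Regions in both lists without MII were 77.8% with 50% shared, counted over GV peaks, and 100% without recurring regions, whose choice used the MII list. Over the share of length, shared GV peaks at starts stood at 19.6 within 1 Mb, 3.58 within 10 Mb, 2.67 without full windows, 1.51 (interval 0.419 to 3.6) without recurring regions and 1.87 without chromosome 14, and at ends at 5.3 within 1 Mb, 2.17 without full windows and 2.26 without recurring regions. GV-only peaks at starts turned from 0.645 within 5 Mb to 1.17 (interval 0.876 to 1.54) within 1 Mb, and at ends stood at 3.2 within 1 Mb and 2.53 within 10 Mb. 2-cell-only peaks at starts stood at 2.64 within 1 Mb and 1.08 without chromosome 14, and at ends at 3.11 within 1 Mb. The median width of shared over unshared peaks was 1.19 in GV and 1.18 in 2-cell without recurring regions, against 1.6 and 1.86 with them. The cause was not tested. Depth per library is unknown, so a peak absent from a list is not shown to be closed chromatin.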

Other observations

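The X chromosome held a stretch dense in shared peaks, chosen after its values were seen. Between 10 and 40 Mb, which is 20.2% of its length, lay 32 of 57 shared GV peaks on X (56.1%, interval 42.4% to 69.3%) and 34 of 61 shared 2-cell peaks (55.7%). GV-only peaks on X lay there in 32.5% of cases (77 of 237) and 2-cell-only peaks in 25.5% (14 of 55). GV-only peaks on X were found in the blastocyst lists in larger shares than GV-only peaks of all chromosomes, X included. They came to 15.2% (interval 10.9% to 20.4%) in blastocysts and 13.5% in in vivo blastocysts, against 2.95% and 1.68%. In the 4-cell list 18.6% of GV-only X peaks were present, against 5.5% of all GV-only peaks. Both blastocyst lists were themselves dense on X, at 1.92 (blastocyst) and 1.69 (in vivo blastocyst) relative to the list mean. The 4-cell list was not, at 0.819. How often X peaks of the whole series overlapped these lists was not computed, and the difference between X and other chromosomes was not tested. Shared X peaks had an MII peak in 22.8% of GV and 19.7% of 2-cell peaks.

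GV-only peaks on chromosomes 13, 18 and 23, where the GV list was dense, were found in the 8-cell and day 14 lists in shares close to those of the other chromosomes, and in the blastocyst list in a smaller one. The difference between these places was not tested. In the 8-cell list 25.6% (interval 22.4% to 29%) of these 703 peaks were present against 23.2% elsewhere, and in day 14 embryos 51.2% against 48.4%. Blastocyst peaks were found for 0.853% (6 peaks) against 3.4%. The blastocyst list was itself sparse on chromosomes 13, 18 and 23, at 0.604, 0.273 and 0.388 times its mean density. Of 2-cell-only peaks, 9.41% on these chromosomes and 17.6% elsewhere had a blastocyst peak.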
